A study of Mus musculus with 2 samples.

Results

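Reads of a Zfp322a chromatin immunoprecipitation (ChIP-seq) were examined at the promoters of 75 splicing and RNA-binding factor genes, out of 22359 protein-coding genes. A gene was included when its symbol began with Hnrnp, Srsf, Snrp, Sf3a, Sf3b, U2af, Prpf or Pcbp, or was Tardbp, Magoh, Magohb, Rbm8a, Eif4a3 or Casc3. The genes comprised 18 of the Hnrnp group, 13 Prpf, 12 Snrp, 11 Srsf, 8 Sf3a and Sf3b, 4 Pcbp and 3 U2af genes, 5 genes of the exon junction complex, and Tardbp. Zfp322a is a C2H2 zinc finger protein, and the study asked where it sits on the genome of mouse ES cells. Both libraries came from E14 cells, a mouse embryonic stem cell line kept in serum with LIF, for which the labels name C57BL/6 as the background strain. One chromatin sample was precipitated with an anti-ZNF322 antibody (the Zfp322a library) and the other with anti-Rabbit IgG (the IgG library). Each antibody had 1 library, so no value below has a replicate check. Every interval and every exact p-value compares these 2 libraries, not the conditions, and covers counting error only. The labels name no treatment or depletion of Zfp322a for either library, and transcription of the genes was not measured in these files.

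Splicing removes introns from pre-mRNA on the spliceosome, which is assembled from small nuclear ribonucleoprotein particles (snRNPs) and associated proteins. Sm proteins (Snrpb, Snrpd, Snrpe, Snrpf and Snrpg) form the ring of these particles, U2AF recognises the 3′ splice site, the SF3A and SF3B complexes belong to the U2 snRNP, and many PRPF proteins act in the tri-snRNP and its activation. SR proteins (Srsf genes) and hnRNP proteins bind pre-mRNA and steer splice site choice, PCBP proteins bind C-rich RNA, TDP-43 (Tardbp) binds UG-rich RNA, and the exon junction complex marks joined exons.

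The Zfp322a library held 5187475 mapped reads, of which 4148324 (80.0%) had a mapping quality of at least 25 on the autosomes, X or Y. The IgG library held 4843481 mapped reads and 3875599 (80.1%) of that kind. Reads were counted from 1000 bp upstream to 1000 bp downstream of each gene's main transcription start site (TSS). This was the site with the largest number of protein-coding transcript starts within 500 bp, and the most upstream one among equals. The fold per read is the Zfp322a count divided by the Zfp322a library total, over the IgG count divided by the IgG library total. At these totals, equal enrichment gives 1.07 Zfp322a reads for each IgG read.

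The stretch just upstream of the TSS (−150 to −1 bp) is shown for 5 of the members with the highest folds, because Zfp322a reads piled up on it or next to it. The sequences are from mm9, 5′ to 3′ on the strand of each gene, and overlap no annotated exon. They lie at chr15:102300913-102301062 (plus strand) for Pcbp2, chr11:50191071-50191220 (plus) for Hnrnph1, chr4:148001129-148001278 (minus) for Tardbp, chr4:107552210-107552359 (plus) for Magoh and chr3:108714646-108714795 (minus) for Prpf38b.
Pcbp2: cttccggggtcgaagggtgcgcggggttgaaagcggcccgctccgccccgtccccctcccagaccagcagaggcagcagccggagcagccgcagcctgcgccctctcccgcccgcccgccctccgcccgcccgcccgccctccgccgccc
Hnrnph1: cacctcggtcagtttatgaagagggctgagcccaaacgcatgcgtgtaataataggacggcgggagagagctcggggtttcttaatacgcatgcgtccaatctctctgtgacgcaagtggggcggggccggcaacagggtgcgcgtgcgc
Tardbp: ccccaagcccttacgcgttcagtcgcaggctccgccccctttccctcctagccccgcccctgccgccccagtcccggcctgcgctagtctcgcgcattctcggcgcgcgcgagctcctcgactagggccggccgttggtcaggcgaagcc
Magoh: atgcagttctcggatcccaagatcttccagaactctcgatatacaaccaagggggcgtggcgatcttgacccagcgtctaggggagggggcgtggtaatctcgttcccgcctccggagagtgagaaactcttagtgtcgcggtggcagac
Prpf38b: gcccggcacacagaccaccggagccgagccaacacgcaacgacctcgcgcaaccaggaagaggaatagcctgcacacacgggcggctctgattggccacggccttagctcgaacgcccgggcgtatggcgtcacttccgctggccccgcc

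The summit of the Pcbp2 signal lay in an intron, and the 101 bases around it (chr15:102301347-102301447, plus strand) contained 70.3% G and C. The summit at Hnrnpm also lay in an intron (chr17:33821895-33821995, minus strand), and those at Hnrnpr (chr4:135866681-135866781, plus strand) and Hnrnpc (chr14:52723892-52723992, minus strand) lay upstream of the TSS. The 101 bases around the Hnrnpc summit contained 49.5% G and C, against 63.4% at Hnrnpm and 70.3% at Hnrnpr.
Pcbp2: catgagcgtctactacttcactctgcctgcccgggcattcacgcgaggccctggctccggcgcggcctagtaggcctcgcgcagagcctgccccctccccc
Hnrnpm: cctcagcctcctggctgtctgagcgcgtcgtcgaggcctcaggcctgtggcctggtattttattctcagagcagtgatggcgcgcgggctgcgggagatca
Hnrnpr: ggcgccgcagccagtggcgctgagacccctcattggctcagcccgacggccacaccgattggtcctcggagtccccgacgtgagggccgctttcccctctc
Hnrnpc: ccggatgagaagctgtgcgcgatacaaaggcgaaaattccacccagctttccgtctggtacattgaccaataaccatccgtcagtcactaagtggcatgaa

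Splicing and RNA-binding factor promoters carried more Zfp322a reads than IgG reads as a group. The fold per read was at least 2, with at least 10 Zfp322a reads, at 40 of the 75 genes (53.3%), against 15.6% of all protein-coding genes. It was at most 1/2, with at least 10 IgG reads, at 0 of the 75, against 1.60% of all genes. The median fold per read was 2.07, against 1.31 over all protein-coding genes. The fold per read was above 1 at 71 of the 75 genes, against 62.8% of all genes.

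In an exact conditional binomial test of each window, adjusted by Benjamini-Hochberg over all 15965 genes with at least 10 reads in both libraries together, 19 of the 74 tested members (25.7%) were higher in Zfp322a, against a background of 5.14%. Members lower in Zfp322a numbered 0, against a background of 0.0438%. At an unadjusted p under 0.05 there were 41 members, against 18.4% of all tested genes, and the 95% interval lay above 1 at 40, against 16.2%. Summed over the members, 2092 Zfp322a reads stood against 885 of IgG (pooled fold per read 2.21, and 2.11 without Pcbp2, the gene with the most reads). Over all protein-coding genes the pooled fold per read was 1.41.

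Promoters in general were raised over the library totals, and the members lay above that level. Scaling by the reads of all TSS windows lowered the median of all tested genes by 0.50 on the log2 scale. On that scale the median of the members was 1.46, 21 members were past 2-fold against 5.68% of all genes, and 3 passed the binomial test against 0.445%, namely Pcbp2, Hnrnph1 and Tardbp. The reads 5 to 50 kb on both sides of the members gave a median fold per read of 1.14, and 1.07 for all genes. Scaled by these flanks, 33 members were past 2-fold against 11.9% of all genes, and 11 passed the test against 2.76%.

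**Figure D1:**
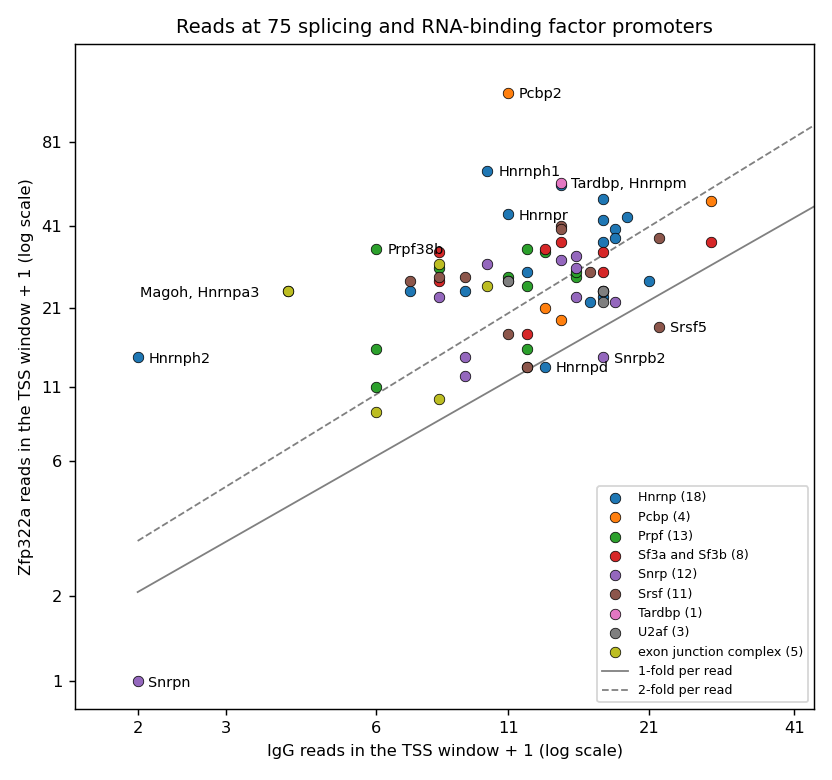
Zfp322a against IgG reads (each plus 1, log scales) in the TSS window of the 75 genes, 1 point per gene, coloured by family. Lines mark equal reads per library total and 2-fold. 40 genes lie on or above the 2-fold line with at least 10 Zfp322a reads, Pcbp2 (120 against 10) is highest, and Srsf5 and Snrpb2 lie below the line of equal reads.

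**Figure D2:**
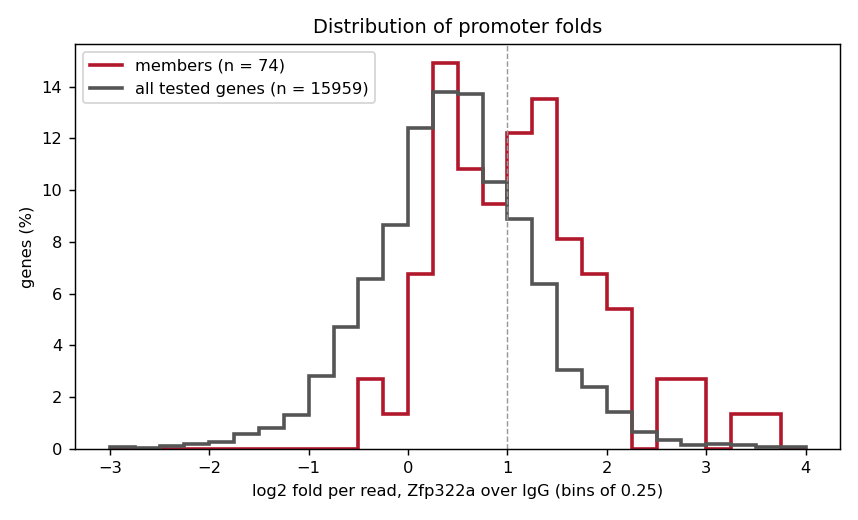
Distribution of log2 fold per read over 74 members (red) and over 15959 protein-coding genes with at least 10 reads in both libraries together and an IgG count above 0 (grey), in bins of 0.25 with values beyond the axis in the end bins. The dashed line marks 2-fold. The members are shifted to the right of all genes and have no gene below −0.5.

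The Hnrnp group had the most genes past 2-fold, 13 of 18, against 15.6% of all genes. Its median fold per read was 2.37, and 7 genes passed the binomial test, against 5.14% of all tested genes. Hnrnph1, whose protein binds G-rich stretches of pre-mRNA, had 63 Zfp322a and 9 IgG reads, a fold of 6.54 (95% interval 3.24 to 15.0, adjusted exact p = 1.83e-07). Hnrnpm, a GU-rich RNA binder, had 56 against 13 reads, a fold of 4.02 (2.17 to 8.02, adjusted exact p = 1.71e-04). Hnrnpr, an RNA-binding protein related to Syncrip, had 44 against 10, a fold of 4.11 (2.04 to 9.16, adjusted exact p = 1.06e-03). All 3 were high through many Zfp322a reads, over an IgG count close to the members' median of 12. The calls at Hnrnpm and Hnrnpr depended on the window. At the 5′ end of the gene record of Hnrnpm, 1402 bp upstream, there were 3 against 2 reads, a fold of 1.4, too few to be tested. Within 500 bp of the TSS the fold at Hnrnpr was 2.70 (adjusted exact p = 0.115).

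Hnrnpa3 and Hnrnph2 reached high folds on few IgG reads. Hnrnpa3, a relative of Hnrnpa1 and Hnrnpa2b1, had 23 against 3 reads, a fold of 7.16 (2.16 to 37.3, adjusted exact p = 6.69e-03). Hnrnph2, the X-linked paralog of Hnrnph1, had 13 against 1 read, a fold of 12.1 (1.82 to 516, adjusted exact p = 0.0423). The divergent gene Gla starts 54 bp upstream of Hnrnph2, so reads of the 2 promoters cannot be told apart. Chromosome X as a whole stood at 1.32 per read. Scaled by its own chromosome, the fold at Hnrnph2 was 9.21 and its adjusted exact p 0.129, and scaled by its flanks they were 8.40 and 0.175. Within 500 bp of the TSS the adjusted exact p was 0.168 at both genes, with folds of 4.05 at Hnrnpa3 and 8.41 at Hnrnph2. Neither gene had a site by the height criteria given below.

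Hnrnpab (50 against 16 reads) and Hnrnpa2b1 (42 against 16), which were chosen for mention after their values were seen, also passed the test, with folds of 2.92 and 2.45. Hnrnpc, a nuclear hnRNP that binds uridine tracts, had 23 against 6 reads, a fold of 3.58 (1.42 to 10.8), and missed the threshold with an adjusted p of 0.0507. Within 500 bp of its TSS the fold was 4.67 and it passed (adjusted exact p = 0.038). At the other end, Hnrnpd (AUF1, a binder of AU-rich elements) had 12 reads in each library, a fold of 0.934 (0.384 to 2.27), the lowest of the group. The intervals of Hnrnph1 and Hnrnpd did not overlap. Both genes were named for their high or low values, and a difference between them was not tested.

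Among the SR protein genes, 6 of 11 were past 2-fold, against 15.6% of all genes, and the median fold per read was 2.34. The test was passed by 4 (Srsf4, Srsf7, Srsf10 and Srsf11), against 5.14% of all tested genes. Srsf4 was the highest with 25 against 6 reads, a fold of 3.89 (1.56 to 11.6, adjusted exact p = 0.0283). It did not pass within 500 bp of the TSS (fold 3.97, adjusted exact p = 0.0971) or scaled by its flanks (fold 3.42, adjusted exact p = 0.0866). Srsf11 had 40 against 13 reads, a fold of 2.87 (1.51 to 5.86, adjusted exact p = 0.0178), and its Zfp322a peak was among the tallest of all members. Srsf10 had 26 against 7 reads (fold 3.47) and Srsf7 39 against 13 (fold 2.80). Srsf1, the founding member of the family, had 16 against 10, a fold of 1.49 with an interval (0.638 to 3.69) that included 1. The window of Srsf11 also held the divergent gene Lrrc40, which starts 23 bp upstream, so its reads cannot be told apart from those of that promoter. The start of Ttc39d likewise lies 171 bp upstream of Srsf7.

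Srsf5 and Srsf12 lay at the low end. Srsf5 had 17 Zfp322a and 21 IgG reads, a fold of 0.756 (0.375 to 1.51), the lowest of the tested members. Srsf12 had 12 against 11 reads, a fold of 1.02 (0.412 to 2.55). In the plot of heights the IgG reads of Srsf5 formed a pile of their own downstream of the TSS, while its Zfp322a reads peaked closer to the TSS. In the window of 500 bp on either side of the TSS the fold at Srsf5 was 1.12. By the height criteria given below it had a site 198 bp downstream of the TSS, with heights of 9 for Zfp322a and 2 for IgG.

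The spliceosomal complexes are described in turn, and a difference between them was not tested. Of 8 Sf3a and Sf3b genes, 4 were past 2-fold (median 2.19), against 15.6% of all genes. Sf3a1 alone passed the test, against 5.14% of all tested genes. It had 32 against 7 reads, a fold of 4.27 (1.85 to 11.5, adjusted exact p = 8.00e-03). Scaled by its flanks the fold at Sf3a1 was 3.27 (adjusted exact p = 0.0764). Its partner in the SF3A complex, Sf3a2, had 35 against 27 reads, a fold of 1.21 (0.712 to 2.08), so the Zfp322a counts of these genes were close and the IgG counts differed. The start of Ccdc157 lies 57 bp upstream of Sf3a1, and that of Plekhj1 lies 106 bp upstream of Sf3a2. Further genes of the group, described after their values were seen, were Sf3a3 with 25 against 7 reads (fold 3.34) and Sf3b1, the branch point contact protein of SF3B, with 33 against 12 (fold 2.57), both with an interval above 1 but not past the adjusted test. Sf3b5 had 16 against 11 reads, a fold of 1.36.

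Of 13 Prpf genes, 7 were past 2-fold (median 2.04), against 15.6% of all genes. The test was passed by 3 (Prpf38b, Prpf39 and Prpf8), against 5.14% of all tested genes. Prpf38b, whose protein is related to the spliceosomal factor PRP38A, had 33 against 5 reads, a fold of 6.17 (2.39 to 20.2, adjusted exact p = 1.41e-03). Prpf8, the large core protein of the U5 snRNP, had 33 against 11, a fold of 2.80 (1.38 to 6.15, adjusted exact p = 0.0445). Prpf39, a U1 snRNP-associated factor, had 28 against 7, a fold of 3.74 (1.60 to 10.1). Prpf40b had 12 against 11 reads, a fold of 1.02 (0.412 to 2.55), the lowest of the group. Prpf4, a component of the U4/U6 snRNP, had 24 against 11, a fold of 2.04 whose interval (0.961 to 4.61) included 1. The start of Cdc26 lies 155 bp upstream of Prpf4.

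The Snrp genes, which encode Sm and other snRNP proteins, had a lower median fold per read (1.49) than the members together (2.07). It was 1.31 over all protein-coding genes. Of 12 Snrp genes, 4 (33.3%) were past 2-fold, against 15.6% of all genes. In the exact binomial test 0 passed after adjustment, against 5.14% of all tested genes. At an unadjusted p under 0.05 there were 4, against 18.4%. Snrpd1 (SmD1) was the highest with 29 against 9 reads, a fold of 3.01 (1.39 to 7.23, adjusted exact p = 0.0533). It passed within 500 bp of the TSS (fold 3.60, adjusted exact p = 0.038) and scaled by its chromosome (fold 3.57, adjusted exact p = 0.0178). Snrpa1, a U2 snRNP protein, followed with 22 against 7 reads, a fold of 2.94 (1.21 to 8.14). Snrpb2 (U2B″) was the lowest tested gene with 13 against 16 reads, a fold of 0.759 (0.336 to 1.68). Whether the Snrp genes differ from the Hnrnp genes was not tested.

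Snrpn, an imprinted gene expressed mainly in neurons, had 0 Zfp322a reads and 1 IgG read at its main TSS and was not tested. A count of 0 allows up to 3 reads, so no fold is given for that start. At another annotated start of Snrpn, 135063 bp away, there were 11 Zfp322a and 6 IgG reads.

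Of the U2af genes only U2af1l4, which encodes a U2AF small subunit-like protein, was past 2-fold, against 15.6% of all genes. It had 25 against 10 reads, a fold of 2.34 (1.08 to 5.45). U2af1, the small subunit itself, had 21 against 16 reads, a fold of 1.23 (0.610 to 2.51). Of the 3 genes, 0 passed the exact binomial test after adjustment, against 5.14% of all tested genes. At an unadjusted p under 0.05 there was 1, against 18.4%. U2af1l4 shares its promoter with Psenen, which starts 137 bp upstream.

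Pcbp2 had the most Zfp322a reads of all members. Its promoter had 120 Zfp322a and 10 IgG reads, a fold of 11.2 (5.89 to 24.0, adjusted exact p = 5.65e-20). The other three Pcbp genes had between 18 and 49 Zfp322a reads and between 12 and 27 IgG reads. Pcbp3 was the lowest of them at 18 against 13, a fold of 1.29 (0.599 to 2.87). Since PCBP proteins are close in sequence and Pcbp1 is an intronless gene related to Pcbp2, reads below the mapping quality of 25 were also counted. With those reads included, Pcbp2 had 121 Zfp322a and 10 IgG reads.

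In the exon junction complex, 3 of 5 genes were past 2-fold (median 2.49), against 15.6% of all genes. The test was passed by 2, Magoh and Eif4a3, against 5.14% of all tested genes. Magoh, a core subunit, had 23 against 3 reads, a fold of 7.16 (2.16 to 37.3, adjusted exact p = 6.69e-03). Its paralog Magohb had 9 against 7 reads, a fold of 1.20 (0.398 to 3.80). Eif4a3, the RNA helicase of the complex, had 29 against 7, a fold of 3.87 (1.66 to 10.5, adjusted exact p = 0.0206). The fold of Magoh was above that of Magohb but the intervals of the paralogs overlapped.

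Tardbp, the gene of TDP-43, had 57 Zfp322a and 13 IgG reads, a fold of 4.10 (2.21 to 8.16, adjusted exact p = 1.13e-04). Among the members, Pcbp2 and Hnrnph1 had more Zfp322a reads.

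**Figure D3:**
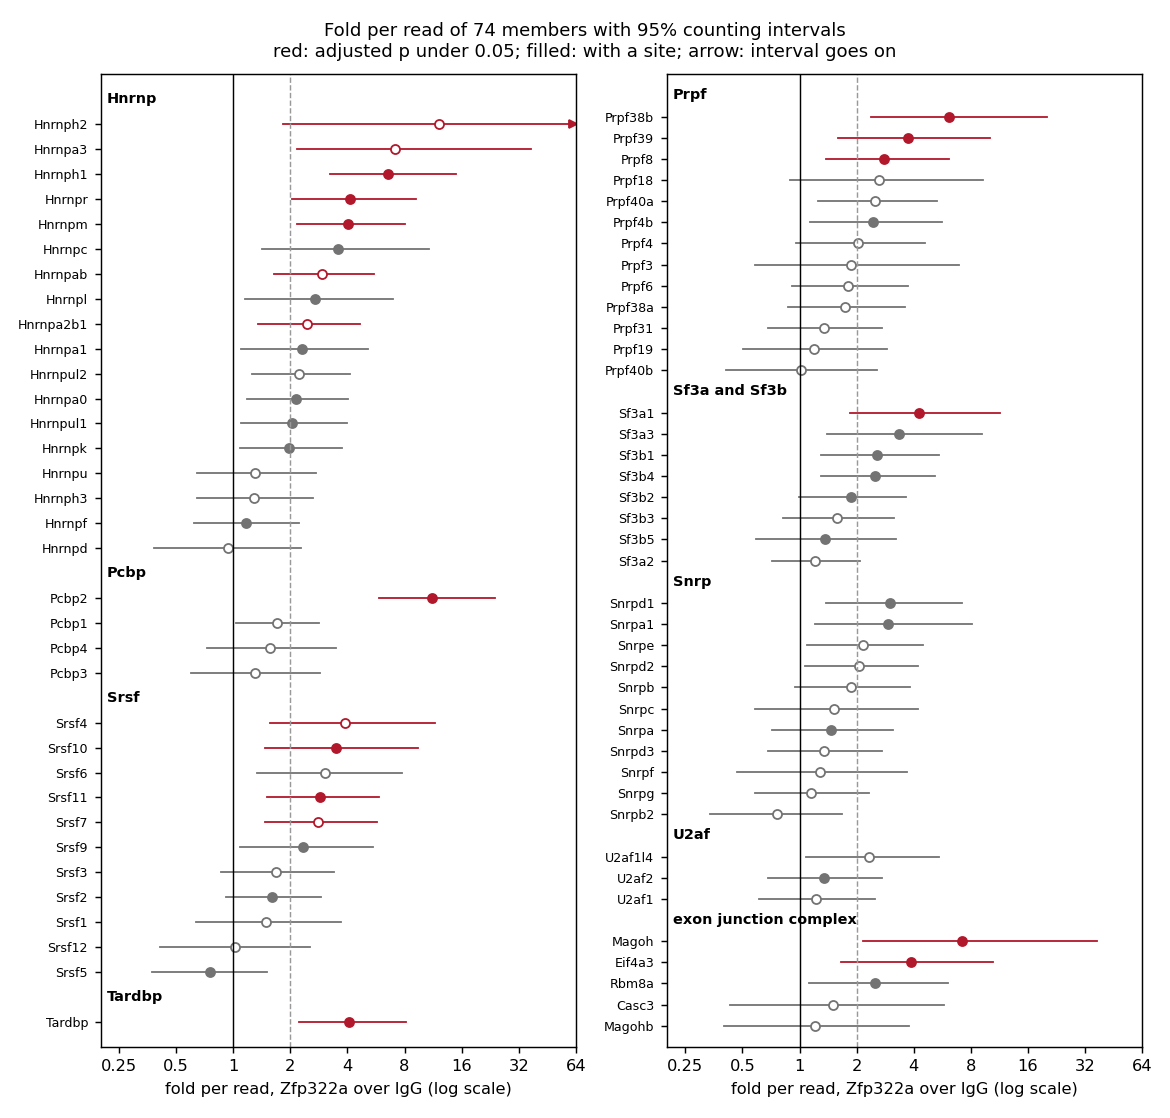
Fold per read (Zfp322a over IgG, log scale) of the 74 tested members by family, with the 95% exact counting interval as a line. Red marks an adjusted p under 0.05, filled points have a site, the arrow marks an interval that goes on, and the dashed line is 2-fold. 19 genes are red, against 5.14% of all tested genes, 7 of them in the Hnrnp group, and no Snrp or U2af gene is.

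Zfp322a reads at the members were concentrated around the TSS. From 0 to 499 bp downstream the members held 870 Zfp322a and 286 IgG reads, a ratio per read of 2.84 (95% interval 2.48 to 3.26), against 1.52 (1.50 to 1.54) over all protein-coding genes and 1.61 (1.59 to 1.63) over genes with a CpG-rich promoter. From 1 to 500 bp upstream the ratio was 2.16 (1.87 to 2.50), against 1.50 and 1.65. From 1001 to 3000 bp downstream it was 1.15 (1.001 to 1.31), against 1.10, and over the same distance upstream it was 1.09 (0.953 to 1.24), against 1.09. The intervals of the members lay above the values of all genes on both sides of the TSS and covered them beyond 1000 bp. These intervals come from reads summed over the members and leave out the spread between genes. The sums include Pcbp2, the gene with the most reads, whose summit lay 334 bp downstream.

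**Figure D4:**
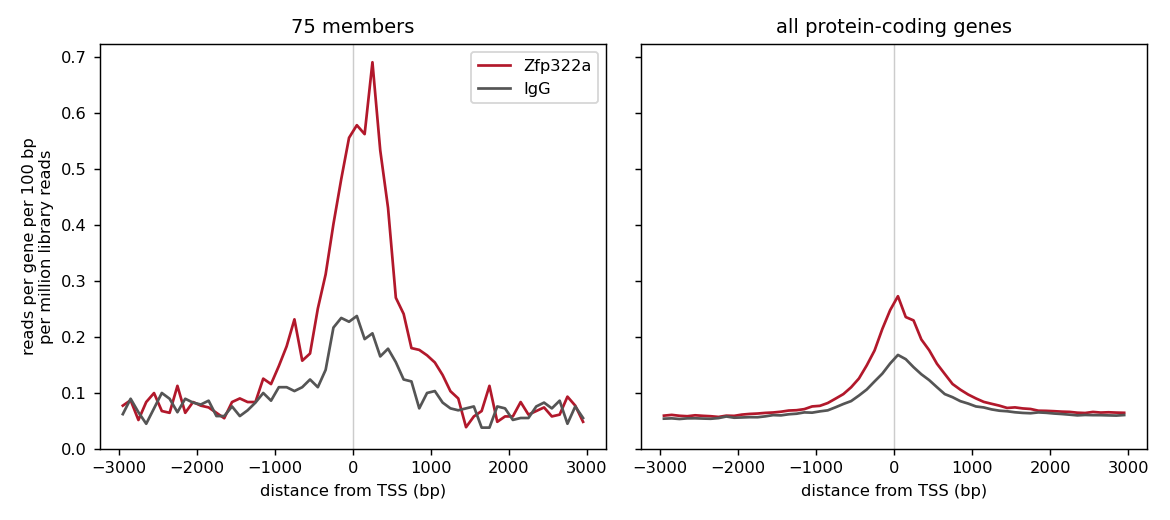
Reads per gene in 100-bp bins, scaled to library size, against the distance from the TSS, for the 75 members (left) and all protein-coding genes (right), with Zfp322a in red and IgG in grey. Both libraries rise at the TSS, and the Zfp322a line rises further in the members, with a ratio of 2.84 in the first 500 bp downstream. From 1001 to 3000 bp downstream the ratio is 1.15 in the members and 1.10 over all genes. Over the same distance upstream it is 1.09 in both.

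A site was called where the height of Zfp322a reads, each extended to 300 bp, reached 9 and was at least 3 times the IgG height of the same stretch. Such a site overlapped the window of 34 of the 75 members (45.3%), against 11.3% of all protein-coding genes and 20.3% of those with a CpG-rich promoter. The numbered regions deposited for Zfp322a overlapped 14 member windows (18.7%), against 3.05%, and 13 of those 14 members also had a site. The deposited list held 925 numbered regions, or 754 distinct intervals. It is shorter than the list of sites the study describes, so a window outside it may still lie in that longer list. The sites and regions come from the same reads as the counts above and are no separate measurement. Of the 34 members with a site, 26 were past 2-fold, and a further 14 members past 2-fold had none.

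The tallest Zfp322a heights were 81 at Pcbp2 (IgG 4), 27 at Hnrnph1 (IgG 6), 27 at Srsf11 (IgG 6), 25 at Tardbp (IgG 6) and 25 at Hnrnpm (IgG 6). The summit lay 334 bp downstream of the TSS at Pcbp2, 133 bp at Hnrnph1, 75 bp at Srsf11, 283 bp at Tardbp and 458 bp at Hnrnpm. All 5 of these summits were thus inside the transcribed part of the gene. At Magoh the height was 12 (IgG 2) and the summit lay 13 bp upstream of the TSS.

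Over the 34 sites, 15 summits lay upstream and 19 downstream of the TSS, 17 of them within 200 bp, and the median was 46.5 bp downstream. By the annotation, 13 summits lay upstream of the gene, 8 in an intron, 7 in a UTR, 2 in coding sequence, 1 in another exon of the gene and 3 in an exon of a neighbouring gene. The neighbours were Cbx5 at the Hnrnpa1 site (at −722 bp), Mfsd11 at the Srsf2 site (at −699 bp) and BC024978 at the Snrpa site. At Hnrnpf and U2af2 the summit lay just outside the window, at +1088 and −1011 bp.

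**Figure D5:**
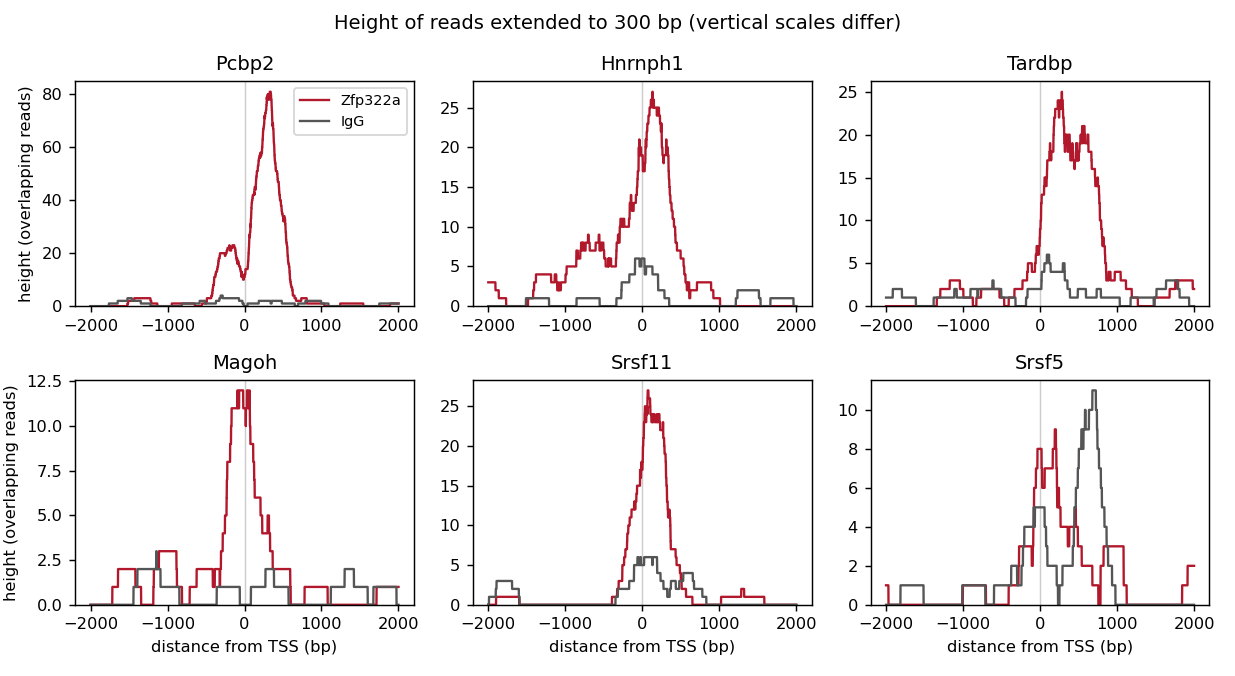
Height of reads extended to 300 bp (overlapping reads, vertical scales differ) against the distance from the TSS for 6 members, with Zfp322a in red and IgG in grey. Pcbp2 reaches 81, Hnrnph1 and Srsf11 27, Tardbp 25 and Magoh 12 Zfp322a reads close to the TSS, while the IgG height of Srsf5 (11) exceeds its Zfp322a height (9), the stretch of its site having an IgG height of 2.

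The study's primer list held ChIP primers for members of the group, and those for Magoh, Prpf4 and Hnrnpc each matched 1 place in mm9. The study states that loci for its qPCR check were picked arbitrarily among its ChIP-seq peaks. Heights at the amplicons come from the same reads as the counts above and are no separate measurement. The 3 pairs are shown here with their amplicons as short designed sequences that fix where these promoters were assayed. The amplicon of Magoh is at chr4:107552306-107552476, that of Prpf4 at chr4:62069814-62069981 and that of Hnrnpc at chr14:52724057-52724201.
Magoh forward: aatctcgttcccgcctccg
Magoh reverse: aagtcactctccatgcctcg
Prpf4 forward: gccagtgacgcacttccact
Prpf4 reverse: ccggcctctctagggcag
Hnrnpc forward: ggccagatcaccgcatttc
Hnrnpc reverse: ctagagataactctcctcccttc

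At the Magoh amplicon (−54 to +116 bp) the Zfp322a height was 12 and the IgG height 1, and the amplicon covered the summit of the Magoh site. At the Prpf4 amplicon (−17 to +150 bp) the heights were 11 and 3. The Hnrnpc amplicon, at −498 to −354 bp, had heights of 8 and 2 and did not reach the Hnrnpc summit at −239 bp, where the Zfp322a height was 11. Prpf4 lay in a deposited region but had no site, the heights in its window being 11 and 4.

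Annotated starts over 1000 bp from the main TSS numbered 26 in 19 members, and 3 had a site. At Srsf11 a start 4913 bp downstream had 32 Zfp322a and 9 IgG reads, a fold of 3.32, with heights of 19 and 4, and its window did not overlap that of the main TSS. At Tardbp a start 1657 bp downstream had 18 against 8 reads, and at Hnrnpf a start 1022 bp downstream had 35 against 18. Both of these windows overlap the one at the main TSS and share reads with it. At Casc3, named after its values were seen, a start 4903 bp downstream had 21 against 12 reads, more than the 8 against 5 at its main TSS.

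Member promoters were rich in CpG. In the stretch from 250 bp upstream to 49 bp downstream of the TSS, the median GC content was 58.7% (range 43.7% to 80.0%) against 55.3% over all genes. The ratio of observed to expected CpG was 0.909 against 0.545. A promoter was called CpG-rich at a GC content of at least 55% and a ratio of at least 0.6, which held for 50 members (66.7%) and 38.4% of all genes. Of the CpG-rich members 27 (54.0%) were past 2-fold, against 24.6% of all CpG-rich genes. A site was present at 22 of them (44%), against 20.3%, and a deposited region at 8 (16%), against 5.37%. The binomial test was passed by 14 (28%), against 7.11% of the tested CpG-rich genes. Of the other 25 members 13 (52.0%) were past 2-fold, against 10% (1378 of 13778) of all genes without a CpG-rich promoter. The members had a median of 12 IgG reads, the same as all CpG-rich genes, and 25 Zfp322a reads, against 19 in those genes.

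A head-to-head neighbour, a protein-coding start on the opposite strand at most 1000 bp upstream, was present at 21 members (28.0%) and 8.54% of all genes. Of all CpG-rich genes 16.8% had such a neighbour. Of the 21 members with a neighbour, 11 were past 2-fold and 6 had a site. Of the 54 members without one, 29 were past 2-fold and 28 had a site. The shares past 2-fold were 52.4% with a neighbour and 53.7% without, and the shares with a site were 28.6% and 51.9%, a difference that was not tested. Over all protein-coding genes 15.6% were past 2-fold and 11.3% had a site. Those shares were not split by neighbour, so the difference cannot be set beside that of other genes.

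Chromosomes 10, 4 and 11 were chosen for mention after their values were seen, and a difference between chromosomes was not tested. All 6 members on chromosome 10 (Hnrnph3, Pcbp3, Sf3a2, Sf3b5, Snrpd3 and Snrpf) had folds between 1.21 and 1.36 and 0 were past 2-fold, against 11.2% of all genes on that chromosome. Chromosome 10 as a whole stood at 0.862 per read. On chromosome 4, at 1.01 per read, 7 of 9 members were past 2-fold, with a median of 3.47, against 16.8% of all genes there. On chromosome 11, at 1.07 per read, 5 of 8 were, against 18.5%. Scaled by the reads of the same chromosome, 40 members were past 2-fold.

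Exact matches of 5 sequence motifs were searched on both strands of the same 300-base stretch, and none of the motifs contains another. AANATGGCG was present at 4 members (5.33%) and 3.06% of all promoters, CCGGAAGT at 11 members (14.7%) and 4.82%, TGCGCATGC at 2 members (2.67%) and 1.92%, and CTACAATTC at 0 members and 0.488%. The first motif of the study, read as a strict pattern from its logo, was present at 5 members (6.67%) and 17.8% of all promoters. In CpG-rich promoters AANATGGCG was present at 5.29%, CCGGAAGT at 8.34%, TGCGCATGC at 3.31%, CTACAATTC at 0.501% and the first motif at 19.5%. A match is a description of the letters and not a binding site.

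The median fold of members with a match, against those without, was 3.38 against 2.04 for AANATGGCG and 4.67 against 2.04 for TGCGCATGC. It was 1.87 against 2.11 for CCGGAAGT and 2.80 against 2.06 for the first motif. These medians rest on at most 11 members with a match, and the differences were not tested. The 4 members with AANATGGCG were Prpf38b, Rbm8a, Sf3a1 and Srsf2, with folds of 6.17, 2.49, 4.27 and 1.60. The 11 with CCGGAAGT had a median fold of 1.87, with 5 past 2-fold, and included Srsf4 (3.89) as well as Srsf5 (0.756), which had 2 matches. The following stretches show the matches in capitals for the 4 members with AANATGGCG and for Hnrnph1 and Srsf7, the 2 with TGCGCATGC. They are on the strand of each gene in mm9, so that a match on the other strand is written as its reverse complement. They lie at chr11:50190971-50190999 (plus strand) for Hnrnph1, chr3:108714631-108714659 (minus strand) for Prpf38b, chr3:96433872-96433900 (plus strand) for Rbm8a, chr11:4060376-4060402 (plus strand) for Sf3a1, chr11:116714439-116714467 (minus strand) for Srsf2 and chr17:80606691-80606719 (minus strand) for Srsf7.
Hnrnph1: ccGCATGCGCAttaagtaaaacaagaaac
Prpf38b: ccgctggcccCGCCATCTTgttcccaggg
Rbm8a: cgagagaagcAAGATGGCGgacgtgctgg
Sf3a1: tctgggtcgcCGCCATCTTgtcattga
Srsf2: gtggcgcgggCGCCATTTTgtaagggtgg
Srsf7: ttgacacaacGCATGCGCAgaaaaaaaga

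Other genes of the pathway were taken from 2 lists. Beside them, 15.6% of all protein-coding genes were past 2-fold, 11.3% had a site, and 5.14% of those tested passed the test. Of 62 further spliceosome and mRNP genes, 19 (30.6%) were past 2-fold, 5 passed the test, 16 had a site, and the median fold per read was 1.48. The highest were Sf1 (branch point binding protein) with 60 against 10 reads, a fold of 5.61, Rbm17 with 19 against 5, a fold of 3.55, and Rbm22 with 26 against 7, a fold of 3.47. Of 54 further gene records of splicing regulators and RNA-binding proteins, 27 were past 2-fold, 10 passed the test, 20 had a site, and the median was 1.998. The highest were Mbnl1 with 19 against 3 reads, a fold of 5.92, Elavl1 (HuR) with 58 against 10, a fold of 5.42, and Rbmx with 10 against 2, a fold of 4.67. Rbm17 (adjusted exact p = 0.0929) and Rbmx (adjusted exact p = 0.234) did not pass the test. The interval of Rbmx (0.9955 to 43.9) included 1. Within 500 bp of the TSS both had a fold of 1.87 on too few reads to be tested. Mbnl1 did not pass in that window (fold 4.36, adjusted exact p = 0.13). The share past 2-fold in the members (53.3%) was thus close to that of the regulator list and above that of the spliceosome list, a difference that was not tested.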

How the data were processed

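Per the labels, both libraries were single-end ChIP-seq of E14 chromatin, and the submitters' processing notes name CASAVA 1.4, BWA and Partek 6.6 and the build mm9. The authors deposited, for each library, 1 line per mapped read with its position, strand and mapping quality score, a whole number with no normalisation, and for Zfp322a the start positions of reads inside numbered regions from the peak caller. Each start position and strand occurred once among the reads of quality at least 25 (100% of both libraries), so repeated starts could not be weighed. The IgG list of regions was not used.

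From these files, reads of quality at least 25 whose 5′ end fell within 1000 bp of each TSS of GENCODE vM1 were counted (Python 3.11.15, scipy 1.17.1, numpy 2.4.6, pandas 2.3.3, matplotlib 3.10.9). The main TSS was the one with the largest number of protein-coding transcript starts within 500 bp, and the most upstream one among equals. Exact conditional binomial tests, two-sided, and 95% Clopper-Pearson intervals used the library totals as the null share, and p-values were adjusted by Benjamini-Hochberg over all protein-coding genes with at least 10 reads in both libraries together. Stretches of height at most 300 bp apart were joined. The steps were tested on simulated data.

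Named genes were the members with ChIP primers, the 10 highest and 5 lowest folds, the 5 tallest peaks, the highest and lowest of each family, and the 3 highest of each further list. Genes named beyond that rule were chosen after their values were seen. The members and lists were chosen with earlier results of these data known. Of the 2 further lists, 62 of 64 and 53 of 54 symbols matched, and 1 symbol had 2 gene records. Primer sequences came from the study's primer list and were matched to mm9. One primer pair is not reported here.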

Additional observations from a re-analysis of the deposited data

How the results depend on the processing

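Under other mapping qualities, windows, start sites and scalings, the 2-fold count stayed between 33 and 44 members, against 11.9% to 16.3% of all genes. The scaling by flanks of 5 to 50 kb was chosen after seeing the data. Without a minimum of reads the count was 40, against 22.5% of all genes. The median fold stayed between 1.87 and 2.35. Exceptions to these ranges, and other results that moved, follow. Scaled by the reads of all TSS windows, 21 members were past 2-fold (5.68% of all genes), 3 passed the binomial test (0.445%) and the median was 1.46. Scaled by flanks 11 passed the test (2.76%). With a fold of at least 3, 18 members were called (5.02% of all genes), and with a fold of heights of at least 5, 15 had a site (4.37%). Under the other settings of the site call 28 to 34 had one (7.24% to 11.7% of all genes). Directions turned at low folds: with 500 bp on either side of the TSS, Hnrnpd was at 1.20, Magohb at 0.701, Snrpb2 at 1.25, Srsf12 at 0.934 and Srsf5 at 1.12. Scaled by all TSS windows, Magohb was at 0.849, Pcbp3 at 0.915, Prpf40b at 0.721, Sf3a2 at 0.856, Srsf12 at 0.721 and U2af1 at 0.867. Scaled by flanks, Prpf40b was at 0.778, Snrpb2 at 1.05 and Srsf12 at 0.936. At the 5′ end of its gene record Mbnl1 had 0 Zfp322a reads. Among the 25 members named by rule, the adjusted call was lost at 4 with 500 bp on either side, 1 at the gene's 5′ end, 1 scaled by chromosome, 3 scaled by flanks and 9 scaled by all TSS windows. It was gained at Hnrnpc and Snrpd1 with 500 bp on either side, and at Snrpd1 scaled by chromosome. The cause was not tested. No paired analysis was possible because each antibody had 1 library. Depth limits single genes: the median member had 25 Zfp322a and 12 IgG reads, and folds under about 2 could not be told from 1 at most of them.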
